A study of Mus musculus with 27 samples.

Results

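The livers of mice that were moved from long-term calorie restriction to a medium-fat diet (CR-MF) were compared with those of mice kept on calorie restriction (CR). The members were chosen by diet label alone, which gave 7 CR-MF and 5 CR arrays, 12 of the 27 arrays in the series. All mice were male C57BL/6J, aged 28 months, and had started their diets at 9 weeks of age. CR mice received daily portions with 30% less energy than the control group ate. CR-MF mice had the same restriction until 24 months and were then given the medium-fat diet, reaching free access after a stepwise increase, so that they had spent 4 months on it. The other groups of the series were 7 mice on the medium-fat diet from the start (MF, 25% of energy from fat) and 8 mice on the control diet (C). These share the fit but serve here only to show where CR-MF livers differed from both, and how both differed from CR. Every mouse was fasted for 4 h, given the gavage vehicle carboxymethyl cellulose and fasted for another 6 h. Only CR mice were fed a part of their daily portion shortly before the first fast, and the part of this meal in any difference between CR-MF and CR was not tested. The comparison addresses which parts of the hepatic expression profile of restricted mice change when old animals leave restriction.

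Liver RNA was hybridised with 1 array per mouse, and all values are log2 intensities normalized by the authors, so that a difference of 1 is a 2-fold change. Median log2 intensities lay between 5.38 and 5.48, and correlations between arrays over the tested genes lay between 0.9563 and 0.9929. The hepatocyte transcripts Alb (13.55 to 13.73) and Ttr (13.19 to 13.36) were high in all 12 livers and were not among the genes tested. Of the 10 hepatocyte markers that were tested, 7 were lower in CR-MF livers (median log2 difference -0.03). Of these, 3 had an unadjusted p under 0.05, as had 6.90% of all genes tested in that direction, and none was called. The adipocyte transcripts Adipoq (3.07 to 3.79) and Lep (3.82 to 4.55) were near background and were not among the genes tested. The 8 adipocyte markers that were tested had higher mean levels, 7.2 to 8.2 in CR-MF and 7.1 to 7.7 in CR livers. Of these 8 markers, 7 were higher in CR-MF livers (median log2 difference 0.27), none at an unadjusted p under 0.05. The source of this difference was not tested. CR-MF mice BC4_11 and BC4_15 had the lowest mean correlation with the other CR-MF arrays, 0.9733 and 0.9762. They also had the highest mean levels of T and natural killer cell, neutrophil and MHC class II markers, and list medians that depend on them are given with and without them. The array names carry a code, and each of the 3 codes held both groups (5 CR-MF and 3 CR mice in G150, 1 of each in G151 and in G152). They also carry a row letter, which was H for every CR-MF array and F or G for every CR array, so that row and diet cannot be told apart. Whole liver was measured, so fewer cells of a type and less RNA per cell cannot be told apart.

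The liver stores glucose as glycogen after a meal, makes fatty acids when carbohydrate is plentiful, and releases glucose and oxidizes fatty acids during fasting. Insulin, glucagon, leptin and the circadian clock set these programs, and daily portion feeding imposes its own rhythm of meal and fast on them. Liver cells also respond to interferons, secreted antiviral proteins that switch on a broad set of genes through STAT and IRF transcription factors.

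Of 13993 genes tested, 84 passed an adjusted p of 0.05 in CR-MF livers against CR livers (limma, Benjamini-Hochberg over all genes tested), which is 0.600% of them. Of these 33 rose (0.236%) and 51 fell (0.364%), and the median log2 difference of all genes was 0.00 when rounded. Without adjustment, 756 genes were higher (5.40%) and 965 were lower (6.90%) at p under 0.05. Of all genes tested, 6964 had a difference above 0. The changes were mostly small. Only 11 of the 84 genes passed 2-fold, 3 upward and 8 downward, and the values of CR-MF and CR mice did not overlap for 49 of the 84, against 168 of all genes tested (1.20%). These counts depended on single mice. The number of calls was 21 without the CR mouse B4_1, 22 without B4_3, 33 without B4_7, and without B4_5 there were 57 rises and 70 falls. Among CR-MF mice it was 22 without BC4_9, 31 without BC4_11, 35 without BC4_1, 41 without BC4_13 and 137 without BC4_3. It was 15 without both BC4_11 and BC4_15, 1 higher and 14 lower. With only the CR-MF and CR arrays in the fit it was 9. Across the 12 mice left out in turn, 11 genes kept their call every time, and all 11 had fallen: Bud13, Ceacam2, Etfbkmt, Lepr, Noct, Ppargc1a, Ppp1r3g, Tm6sf2, Tmem141, Tmem63b and Uqcr11.

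**Figure D1:**
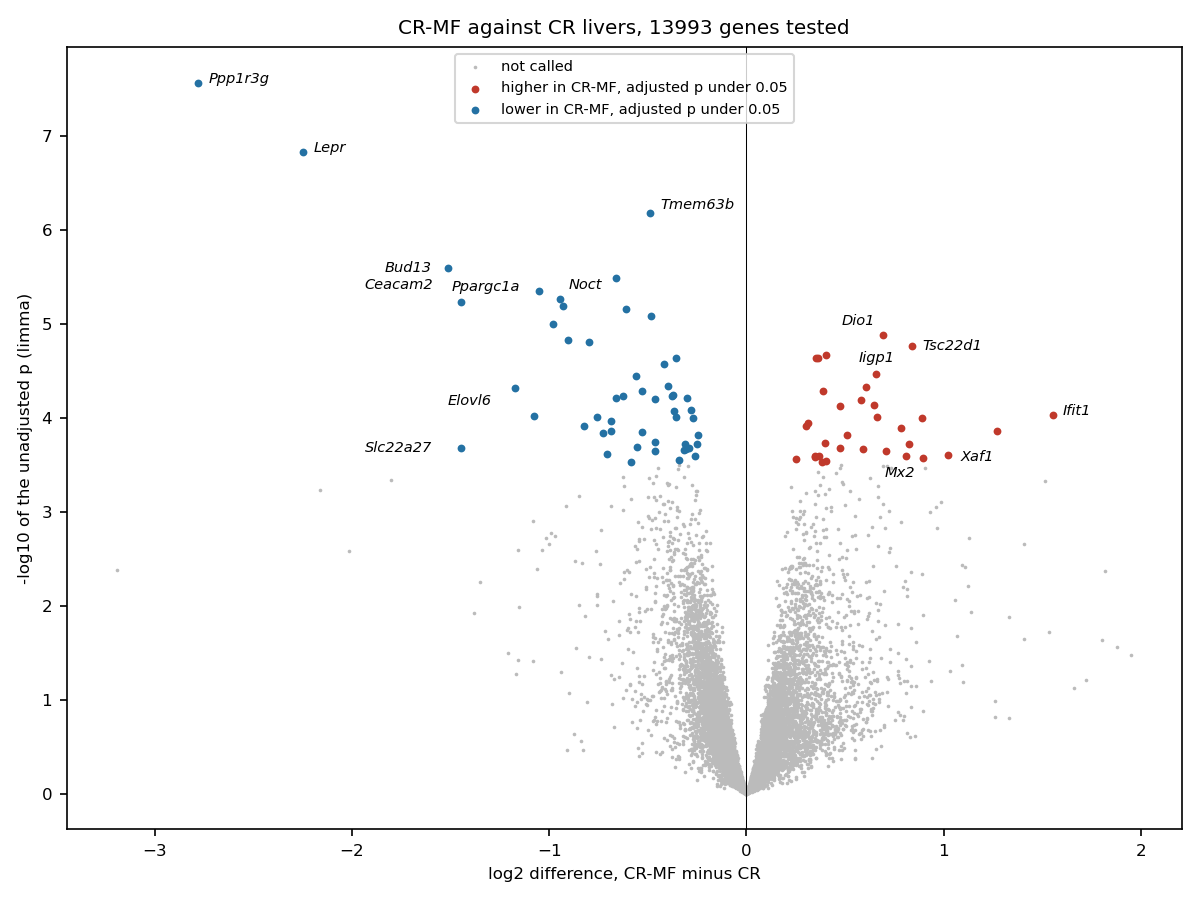
Log2 difference between CR-MF and CR livers (horizontal axis) against minus log10 of the unadjusted limma p (vertical axis) for the 13993 genes tested, 1 point per gene. The 33 genes that rose are red and the 51 that fell are blue, and Ppp1r3g and Lepr lie farthest to the upper left.

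Ppp1r3g, a regulatory subunit that brings protein phosphatase 1 to glycogen and so favours glycogen synthesis, showed the largest fall. Its log2 intensity in CR-MF livers ran from 5.48 to 7.23 with a median of 5.77, against 8.26, 8.66, 9.03, 9.30 and 9.47 in the CR livers. The 2 groups were separated by about 1 log2 unit. The difference was -2.78 ± 0.36 (SE), a 6.87-fold lower level in CR-MF (adjusted p = 0.000379), and Ppp1r3g was the only one of the 65 called genes examined singly that kept its call under all 13 alternative settings other than leaving out a mouse. Within the array codes G150, G151 and G152 the difference was -2.77, -1.47 and -3.99. No other gene of the glycogen machinery was called. Of 21 members tested, 9 were higher and 12 lower, and the median was -0.02. Phkb, a subunit of the kinase that activates glycogen phosphorylase, had the next smallest p in the list, at 8.29 ± 0.10 in CR-MF and 8.06 ± 0.18 in CR (SD, n = 7 and 5, adjusted p = 0.245).

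Lepr, the leptin receptor, had log2 intensities of 6.26 to 8.06 in CR-MF livers with a median of 6.85, against 8.34, 8.66, 9.44, 9.91 and 10.27 in CR livers. No CR-MF mouse reached the lowest CR mouse. The level was 4.75-fold lower in CR-MF (log2 difference -2.25 ± 0.32, adjusted p = 0.00105), and the call was lost only when code G150 was taken alone. Among the 24 genes for leptin, insulin and fasting signals, Lepr was the only call, with 16 members lower and a median of -0.10. Irs2, an insulin receptor substrate that is induced by fasting, stood at 7.47 ± 0.30 in CR-MF and 8.16 ± 0.54 in CR livers (adjusted p = 0.0838). Prkaa2, a catalytic subunit of AMP-activated kinase, was chosen after its values were seen. It stood at 9.58 ± 0.17 in CR-MF and 9.96 ± 0.22 in CR livers (adjusted p = 0.149).

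Ppargc1a, a coactivator of gluconeogenic and mitochondrial genes, fell 2.07-fold. CR-MF livers lay between 7.87 and 8.35 with a median of 8.18, against 8.76, 8.80, 9.17, 9.47 and 9.84 in CR livers, so that every CR-MF mouse was below every CR mouse (log2 difference -1.05 ± 0.18, adjusted p = 0.0098). Got1, the cytosolic aspartate aminotransferase, also fell, with 11.35 to 12.19 in CR-MF against 12.28, 12.32, 12.39, 12.66 and 12.84 in CR (-0.70 ± 0.17, adjusted p = 0.0467), but its call ended with any of 10 mice left out. These were the 2 calls among 20 gluconeogenesis genes, whose median was -0.09, where 0.364% of all genes tested fell. The rate-limiting enzymes of the pathway did not pass the test. G6pc, glucose-6-phosphatase, averaged 12.39 ± 0.17 in CR-MF and 12.85 ± 0.51 in CR livers (adjusted p = 0.183), and Pck1, phosphoenolpyruvate carboxykinase, 12.71 ± 0.15 in CR-MF and 12.95 ± 0.25 in CR livers (adjusted p = 0.271). G6pc and Pck1 were chosen for mention after their values were seen.

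Noct, nocturnin, an output gene of the circadian clock, fell 1.92-fold. Its levels were 7.39 to 8.65 in CR-MF livers (median 7.83), against 8.44, 8.60, 8.64, 8.87 and 9.28 in CR livers. The CR-MF mouse BC4_3, at 8.65, was the only one to reach into the CR range (-0.94 ± 0.17, adjusted p = 0.0098). Noct was the only call among 19 clock genes, of which 14 were lower, with a median of -0.11. The repressor Cry1 averaged 6.61 ± 0.28 in CR-MF and 7.38 ± 0.75 in CR livers, and its adjusted p was 0.130.

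Klb, beta-Klotho, which pairs with FGF receptors to sense the endocrine FGFs of gut and liver, lay between 8.69 and 9.20 in CR-MF livers and at 9.33, 9.40, 9.48, 9.55 and 9.64 in CR livers. The groups did not overlap, and the fall of 0.55 ± 0.13 on the log2 scale had an adjusted p of 0.0446 that was lost with any of 9 mice left out. It was the only call among 23 bile acid genes (median 0.01), and Slc10a2, the apical bile acid transporter, averaged 7.71 ± 0.44 in CR-MF and 6.91 ± 0.38 in CR livers (adjusted p = 0.175). Atg9a, the membrane protein that supplies lipid to the growing autophagosome, fell by 0.30 on the log2 scale (adjusted p = 0.026). It was at 8.45 to 8.65 in CR-MF livers and at 8.71, 8.82, 8.87, 8.88 and 9.03 in CR livers, and was the only call among 25 autophagy and lysosome genes.

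**Figure D2:**
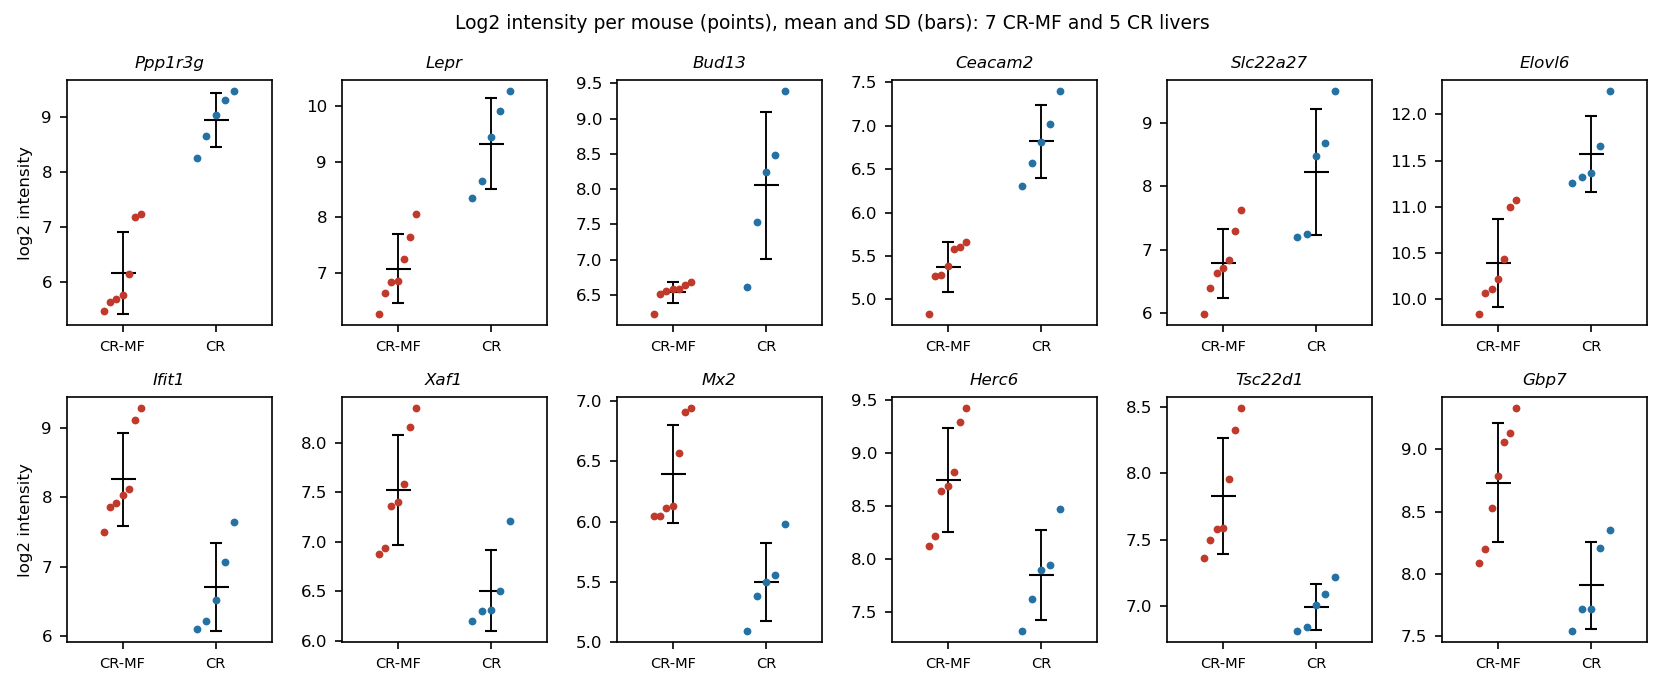
Log2 intensity of 12 genes with large changes in each mouse (points) of the CR-MF group (red, left) and the CR group (blue, right), with the mean and SD of each group (bars). The upper row shows falls, with Ppp1r3g, Lepr, Ceacam2 and Elovl6 separating the groups fully, and the lower row shows rises, of which Mx2 and Tsc22d1 separate them fully.

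Elovl6 and Acaca, of fatty acid synthesis and elongation, fell in CR-MF livers. Elovl6, which elongates the products of fatty acid synthase, had levels of 9.84 to 11.07 in CR-MF (median 10.22), against 11.26, 11.32, 11.36, 11.66 and 12.25 in CR. The groups did not overlap and the level was 2.26-fold lower (log2 difference -1.18 ± 0.24, adjusted p = 0.0259), with the call lost without B4_1, BC4_1, BC4_9 or BC4_11. Acaca, acetyl-CoA carboxylase alpha, the committed step of the pathway, was at 8.78 to 9.61 in CR-MF (median 9.17) and at 9.62, 9.79, 9.89, 10.09 and 10.63 in CR livers. The highest CR-MF mouse came close to the lowest CR mouse without passing it (-0.82 ± 0.18, adjusted p = 0.0342), and 8 of the 12 mice each ended the call when left out. They were the 2 calls among 25 lipogenesis genes, of which 23 were lower, 11 of them at an unadjusted p under 0.05, with a median of -0.34. Of all genes tested 0.364% fell and 6.90% were lower at that p. No member was called with only the CR-MF and CR arrays in the fit, with code G150 alone, with the animal number as a replicate block, or without B4_1, BC4_1, BC4_9 or BC4_11. Fasn, fatty acid synthase, averaged 10.62 ± 0.47 in CR-MF and 11.64 ± 0.74 in CR livers (adjusted p = 0.114). Lpin1, which makes diacylglycerol for triglyceride synthesis, averaged 10.50 ± 0.75 in CR-MF and 11.54 ± 0.36 in CR livers (adjusted p = 0.130). Both were chosen after their values were seen, and neither passed the test. Mean levels of the list overlapped between groups, from 9.89 to 10.62 in CR-MF and from 10.55 to 11.24 in CR livers.

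Acot7 and Them4, 2 thioesterases that release fatty acids from acyl-CoA, and Pemt, which makes phosphatidylcholine from phosphatidylethanolamine, fell as well; all 3 were chosen after their values were seen. Acot7 fell by 0.56 on the log2 scale (adjusted p = 0.0217) and Them4 by 0.63 (adjusted p = 0.026). Pemt was at 11.53 to 11.83 in CR-MF livers and at 11.98, 11.98, 12.01, 12.01 and 12.04 in CR livers. The CR mice were nearly identical and all lay above the CR-MF mice (-0.31 ± 0.07, adjusted p = 0.0446). The calls were lost with any of 3 mice left out for Acot7, 6 for Them4 and 9 for Pemt.

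Differences in the subunits of the respiratory complexes were small and 2 passed the test. Of 33 subunits tested, 32 were lower in CR-MF livers, 16 of them at an unadjusted p under 0.05, and the median was -0.17. Of all genes tested 0.364% fell and 6.90% were lower at that p. Ndufa8 of complex I was at 10.12 to 10.55 in CR-MF and at 10.56, 10.65, 10.69, 10.70 and 10.72 in CR livers (-0.37 ± 0.08, adjusted p = 0.026). Atp5g1, a gene for subunit c of ATP synthase, was at 12.16 to 12.45 in CR-MF and at 12.53, 12.53, 12.57, 12.59 and 12.60 in CR livers (-0.28 ± 0.06, adjusted p = 0.0304). These were the 2 calls of the list, and in both the groups stood apart by less than 0.1 log2 units at their nearest mice. No member of the list was called without B4_1, B4_7, BC4_9 or BC4_11.

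Outside that list, Cox7a1, a cytochrome c oxidase subunit best known from muscle, was at 5.74 to 6.53 in CR-MF livers (median 6.35) and at 6.89, 7.26, 7.27, 7.33 and 7.56 in CR livers. It was 2.11-fold lower without overlap (adjusted p = 0.0305), and the call was lost with any of 7 mice left out. Etfbkmt, which methylates the electron transfer flavoprotein of fatty acid oxidation, was at 8.21 to 9.65 in CR-MF (median 8.99) and at 9.51, 9.79, 9.90, 9.96 and 10.29 in CR livers, a fall of 0.93 ± 0.17 on the log2 scale that no single mouse decided (adjusted p = 0.0098). Uqcr11, Mtfp1, Timm22 and Slc25a25 were chosen after their values were seen. Uqcr11, a subunit of complex III, was at 10.53 to 11.03 in CR-MF livers and at 11.32, 11.40, 11.51, 11.52 and 11.58 in CR livers. The gap between the groups was wider than the spread of the CR mice, and the fall of 0.66 ± 0.11 kept its call with each mouse left out (adjusted p = 0.00917). Mtfp1, a fission protein of the inner membrane, fell by 0.69 (adjusted p = 0.0322), the ATP-Mg carrier Slc25a25 by 0.73 (adjusted p = 0.0367) and the protein import pore Timm22 by 0.32 (adjusted p = 0.0446), all on the log2 scale. Between 6 and 10 mice each ended the calls of these 3 genes when left out.

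Bud13 and Zpr1, neighbours at the apolipoprotein cluster of chromosome 9, fell, and the CR mice had the same order in both. Bud13, a splicing factor, was tight in CR-MF livers (6.23 to 6.68, median 6.59) and wide in CR livers, at 6.61, 7.54, 8.25, 8.49 and 9.39. Only the CR mouse B4_5 lay within the CR-MF range, and the level was 2.86-fold lower in CR-MF (-1.52 ± 0.25, adjusted p = 0.00892). Zpr1, a zinc finger protein next to it in the RefSeq gene order, was at 9.35 to 10.10 in CR-MF (median 9.63) and at 9.83, 10.34, 10.64, 10.71 and 10.93 in CR livers (-0.80 ± 0.15, adjusted p = 0.0145), and its call was lost without B4_1 or B4_3. Apoa5, an apolipoprotein that promotes triglyceride clearance and the next gene in that order, was chosen after its values were seen. It averaged 11.49 ± 0.20 in CR-MF and 11.75 ± 0.19 in CR livers and did not pass the test (-0.27 ± 0.11, adjusted p = 0.324). In all 3 genes the CR mice ranked B4_5, B4_13, B4_1, B4_7 and B4_3 from low to high. This order was not particular to these neighbours. The mean level of the clock genes ranked the CR mice in the same way, at 7.99, 8.16, 8.19, 8.24 and 8.29. Apoa4, on the far side of Apoa5 and also chosen after its values were seen, averaged 12.50 ± 0.29 in CR-MF and 12.63 ± 0.16 in CR livers (adjusted p = 0.777).

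Several other large falls belonged to none of the lists. Ceacam2, an adhesion molecule of the immunoglobulin family, was at 4.83 to 5.66 in CR-MF livers (median 5.38) and at 6.31, 6.57, 6.81, 7.02 and 7.40 in CR livers. The level was 2.73-fold lower with a clear gap between the groups (-1.45 ± 0.26, adjusted p = 0.0098). Tbc1d8, a protein with a Rab GTPase-activating domain, was at 7.84 to 8.65 in CR-MF (median 8.06) and at 8.26, 8.92, 9.19, 9.67 and 9.68 in CR livers (-0.98 ± 0.18, adjusted p = 0.0116, lost without B4_3). Cdc42ep5, an effector of the GTPase CDC42, fell by 0.90 on the log2 scale without overlap (adjusted p = 0.0145, lost without B4_3), and Slc35g1 by 0.76 (adjusted p = 0.0305, lost with any of 7 mice left out). Tmem63b, an ion channel gated by osmotic and mechanical stress and chosen after its values were seen, changed by only -0.49 ± 0.08. Both groups were tight, at 9.56 to 9.93 in CR-MF livers and at 10.17, 10.19, 10.25, 10.29 and 10.32 in CR livers (adjusted p = 0.00309).

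Interferon-induced genes were prominent among the rises, and the largest rise was that of Ifit1. All 37 members tested were above 0 in CR-MF minus CR, with a median of 0.66, although Bst2 stood at 0.00 when rounded. With median centring 36 were above 0. An unadjusted p under 0.05 was reached by 29 members. Of all genes tested 5.40% were higher at that p and 0.236% rose. Ifit1, Xaf1, Mx2, Herc6, Irgm1 and Iigp1 rose, and Gbp7, a guanylate-binding protein outside the list, rose with them. Interferon-induced promoters often carry the interferon-stimulated response element, here searched on both strands as GAAA, any 2 bases and GAAA again, which reads TTTC, any 2 bases and TTTC on the other strand. In windows of 300 bases around RefSeq start sites, 16 of the 27 tested members with a window held a match in at least 1 window (59.3%), against 1079 of all 27025 genes with a window (3.99%) and 3.44% of the 32851 single windows. Of the 7 genes named above, Ifit1, Irgm1 and Gbp7 held a match, Xaf1 and Herc6 held none in their window, and Mx2 and Iigp1 were not searched. The 150 bases before the start sites of the 3 genes are shown 5′ to 3′ on the gene's strand with the matches in capitals (RefSeq, build GRCm38.p6), since these are the genes among the 7 that hold a match. Those of Irgm1 overlap each other.
Ifit1, chr19:34640739-34640888, plus strand: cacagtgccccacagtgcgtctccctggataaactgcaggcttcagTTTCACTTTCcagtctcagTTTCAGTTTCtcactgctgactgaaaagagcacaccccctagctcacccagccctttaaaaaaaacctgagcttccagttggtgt
Irgm1, chr11:48871421-48871570, minus strand: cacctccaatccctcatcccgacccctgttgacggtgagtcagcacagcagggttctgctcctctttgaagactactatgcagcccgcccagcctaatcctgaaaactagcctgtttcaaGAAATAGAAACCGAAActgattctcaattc
Gbp7, chr3:142530186-142530335, plus strand: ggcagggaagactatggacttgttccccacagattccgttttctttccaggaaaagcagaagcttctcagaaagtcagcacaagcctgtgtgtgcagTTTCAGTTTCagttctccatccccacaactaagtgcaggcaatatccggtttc
A match describes the sequence only.

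Ifit1, whose protein binds viral RNA, rose 2.93-fold. CR-MF livers lay between 7.50 and 9.28 with a median of 8.04, against 6.11, 6.22, 6.52, 7.07 and 7.64 in CR livers. Only the lowest CR-MF mouse and the highest CR mouse crossed (log2 difference 1.55 ± 0.34, adjusted p = 0.0305). Xaf1, a proapoptotic antagonist of XIAP, rose 2.03-fold, with 6.88 to 8.35 in CR-MF (median 7.40) against 6.20, 6.30, 6.31, 6.50 and 7.21 in CR (adjusted p = 0.0467). Mx2, a dynamin-like antiviral GTPase, was at 6.05 to 6.94 in CR-MF (median 6.13) and at 5.09, 5.38, 5.50, 5.56 and 5.98 in CR livers, without overlap (0.89 ± 0.21, adjusted p = 0.0474). Herc6, a ubiquitin-like ligase for ISG15 in the mouse, was at 8.12 to 9.42 in CR-MF and at 7.32, 7.62, 7.90, 7.94 and 8.47 in CR livers (0.89 ± 0.20, adjusted p = 0.0305). The CR mice of Xaf1 and Herc6 each included 1 that lay within the CR-MF range.

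Iigp1, Irgm1 and Gbp7 are interferon-induced GTPases of intracellular defence. Iigp1 was at 10.06 to 10.98 in CR-MF livers (median 10.65) and at 9.62, 9.78, 9.91, 10.04 and 10.10 in CR livers (0.66 ± 0.13, adjusted p = 0.0217). Irgm1 was at 8.59 to 9.61 in CR-MF (median 9.12) and at 8.25, 8.42, 8.42, 8.43 and 8.59 in CR livers (0.71 ± 0.17, adjusted p = 0.0446). Gbp7 was at 8.09 to 9.33 in CR-MF (median 8.79) and at 7.54, 7.72, 7.72, 8.21 and 8.35 in CR livers (0.83 ± 0.19, adjusted p = 0.0434). In each of them the highest CR mice reached only the lowest CR-MF mice. Other GTPases of the list, Gbp2, Gbp3 and Mx1 (chosen after their values were seen), were not called. Ifngr2, a chain of the interferon gamma receptor, and Zc3hav1, an antiviral zinc finger protein, were chosen after their values were seen and rose by 0.35 ± 0.07 (adjusted p = 0.0163) and 0.35 ± 0.08 (adjusted p = 0.0473). Cmpk2, Rtp4 and Rsad2, chosen in the same way, did not pass, with log2 differences of 0.69, 0.90 and 0.96 and adjusted p of 0.0512, 0.0517 and 0.0839.

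The strength of the interferon pattern differed among mice of both groups. The mean level of the 37 genes was 7.72, 7.76, 8.09, 8.18, 8.28, 8.65 and 8.78 in the CR-MF mice BC4_3, BC4_5, BC4_13, BC4_15, BC4_11, BC4_9 and BC4_1. It was 7.32, 7.41, 7.44, 7.63 and 8.09 in the CR mice B4_1, B4_3, B4_7, B4_13 and B4_5. The CR mouse B4_5 thus stood at the level of the middle CR-MF mice, and the other CR mice below all of them. The calls moved with these mice while the median stayed between 0.53 and 0.78 across all settings. No member was called without BC4_9, B4_1 or B4_3, 1 without BC4_1 or B4_7, 2 without BC4_11 or BC4_13, 3 without BC4_15 and 4 without B4_13, but 8 without BC4_5, 10 without BC4_3 and 13 without B4_5. None was called with only the CR-MF and CR arrays in the fit, or without both BC4_11 and BC4_15, where 37 remained higher and the median was 0.60. Within the array code G150 the median was 0.67 with 1 call.

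**Figure D3:**
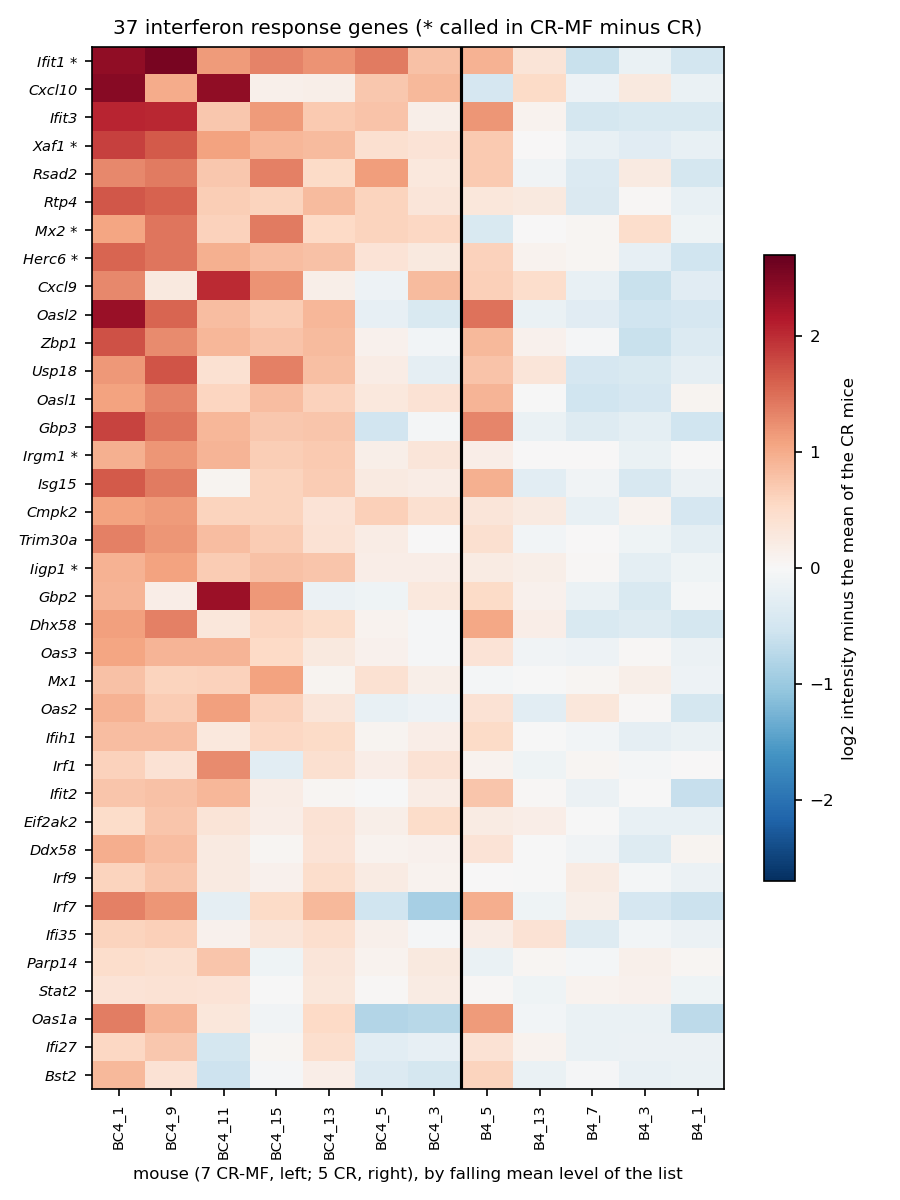
Log2 intensity of the 37 tested interferon response genes (rows) in each of the 7 CR-MF mice (left of the line) and 5 CR mice (right), as the difference from the mean of the CR mice (colour). Columns run from the highest to the lowest mean level within each group, and BC4_1 and BC4_9 on the left and B4_5 on the right are the reddest columns of their groups.

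Immune cell markers were measured beside the interferon genes. All 7 genes of MHC class II presentation were higher in CR-MF livers with a median of 0.81, but none passed the test, and their mean level ran from 7.75 to 10.15 in CR-MF and from 7.94 to 8.26 in CR livers. Of these Cd74, the invariant chain, averaged 10.20 ± 1.02 in CR-MF and 9.28 ± 0.14 in CR livers (adjusted p = 0.373), and it was chosen after its values were seen. Of the 14 markers of T and natural killer cells 13 were higher (median 0.41, mean level 5.07 to 6.92 in CR-MF and 5.12 to 5.29 in CR), and of 11 neutrophil markers all 11 (median 0.35, mean level 4.42 to 5.62 in CR-MF and 4.38 to 4.77 in CR). No member of these lists was called. The highest levels of all 3 belonged to BC4_11 and BC4_15, whereas the highest interferon levels belonged to BC4_1 and BC4_9. BC4_9 had the lowest MHC class II (7.75) and T and natural killer cell (5.07) levels of the 12 mice, and the lowest neutrophil level of the CR-MF mice (4.42). BC4_1 stood above every CR mouse for MHC class II (9.00) and T and natural killer cells (5.65). Its neutrophil level (4.66) lay within the CR range. Without BC4_11 and BC4_15 the medians were 0.30 for MHC class II, 0.03 for T and natural killer cells (9 of 14 higher) and 0.05 for neutrophils (9 of 11 higher), against 0.60 for the interferon list, and the log2 difference of Cd74 was 0.42. The 13 Kupffer cell markers had no call (median 0.28, and 0.02 without both mice), with mean levels of 8.57 to 9.62 in CR-MF and 8.66 to 9.24 in CR livers. Of 9 B and plasma cell markers 8 were higher (median 0.38), and 8 without both mice (0.28). Of 10 markers of recruited and lipid-associated macrophages 8 were higher (median 0.25), and 5 without both mice (0.02). Neither list had a call. The part of these cells in the interferon result was not tested.

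Other genes that rose were not on the interferon list. BC023105, listed without a gene name beyond this identifier, had the next largest rise after Ifit1. Whether interferon induces this gene was not examined. It was at 8.11 to 10.08 in CR-MF livers (median 8.59) and at 7.01, 7.29, 7.66, 7.87 and 8.24 in CR livers. The highest CR mouse lay within the CR-MF range (1.27 ± 0.28, adjusted p = 0.0367, lost with any of 7 mice left out). Dio1, the deiodinase that activates thyroid hormone in the liver, was at 10.19 to 10.67 in CR-MF livers (median 10.46) and at 9.52, 9.60, 9.66, 9.97 and 10.04 in CR livers. The groups did not overlap, and the rise of 0.69 ± 0.13 had the smallest p of any rise (adjusted p = 0.0142, lost without B4_3). Tsc22d1, a transcriptional regulator responsive to TGF-beta, was at 7.36 to 8.49 in CR-MF (median 7.59) and at 6.81, 6.84, 7.01, 7.09 and 7.22 in CR livers, also without overlap (0.84 ± 0.16, adjusted p = 0.0151, lost without B4_1). It was the only call among 24 genes of the glucocorticoid and stress response (median 0.05). Slc41a1, a magnesium transporter, was at 7.54 to 8.71 in CR-MF and at 6.90, 6.96, 7.03, 7.13 and 7.50 in CR livers (0.81 ± 0.19, adjusted p = 0.0467). Eif4e3, a cap-binding protein, rose by 0.66 ± 0.14 (adjusted p = 0.0305) and the receptor tyrosine kinase-like Ror1 by 0.65 ± 0.14 (adjusted p = 0.0282). The calls of Slc41a1, Eif4e3 and Ror1 were lost with any of 9, 8 and 5 mice left out.

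Bhmt, Lpgat1, Smarca4 and Smarce1 were chosen after their values were seen. Bhmt, which remethylates homocysteine with betaine, was at 12.40 to 12.89 in CR-MF livers and at 11.56, 12.03, 12.11, 12.27 and 12.48 in CR livers (0.58 ± 0.12, adjusted p = 0.0261). Lpgat1, an acyltransferase of phospholipid synthesis, was at 10.74 to 11.35 in CR-MF and at 10.18, 10.22, 10.43, 10.51 and 10.67 in CR livers (0.51 ± 0.12, adjusted p = 0.0378). The subunits of the SWI/SNF chromatin remodeller Smarca4 and Smarce1 rose by 0.31 ± 0.07 (adjusted p = 0.0333) and 0.25 ± 0.06 (adjusted p = 0.0478), both without overlap. The calls of these 4 genes were lost with any of 5 to 9 mice left out. The metallothionein Mt1, a metal-binding stress protein, was at 10.68 to 12.74 in CR-MF livers and at 8.52, 9.77, 9.91, 10.24 and 11.38 in CR livers, and its difference of 1.52 ± 0.38 missed the threshold (adjusted p = 0.063).

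Most of the pathway lists held few or no calls. Of 25 lists, 15 had none, among them cholesterol synthesis (18 of 20 members lower, median -0.28), PPARalpha targets and fatty acid oxidation (21 of 24 lower, -0.19), acute-phase plasma proteins (20 of 21 higher, 0.20) and fibrosis and extracellular matrix (21 of 22 higher, 0.23). The fibrosis list rested on BC4_11 and BC4_15, whose mean levels were 8.11 and 7.54, against 7.01 to 7.18 in the other CR-MF mice and 7.08 to 7.21 in CR mice. Without both mice 11 of its 22 members were higher and the median was -0.01. The acute-phase list then had 15 of 21 higher and a median of 0.08, the PPARalpha list 17 of 24 lower and -0.11, and the glucocorticoid and stress list -0.08. Lipid droplet and PPARgamma genes were balanced, with 14 of 25 higher and a median of 0.05. Of the 13993 genes tested, 6964 were higher, 0.236% rose and 0.364% fell. Their median was 0.00 when rounded, and no test of a list was made.

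**Figure D4:**
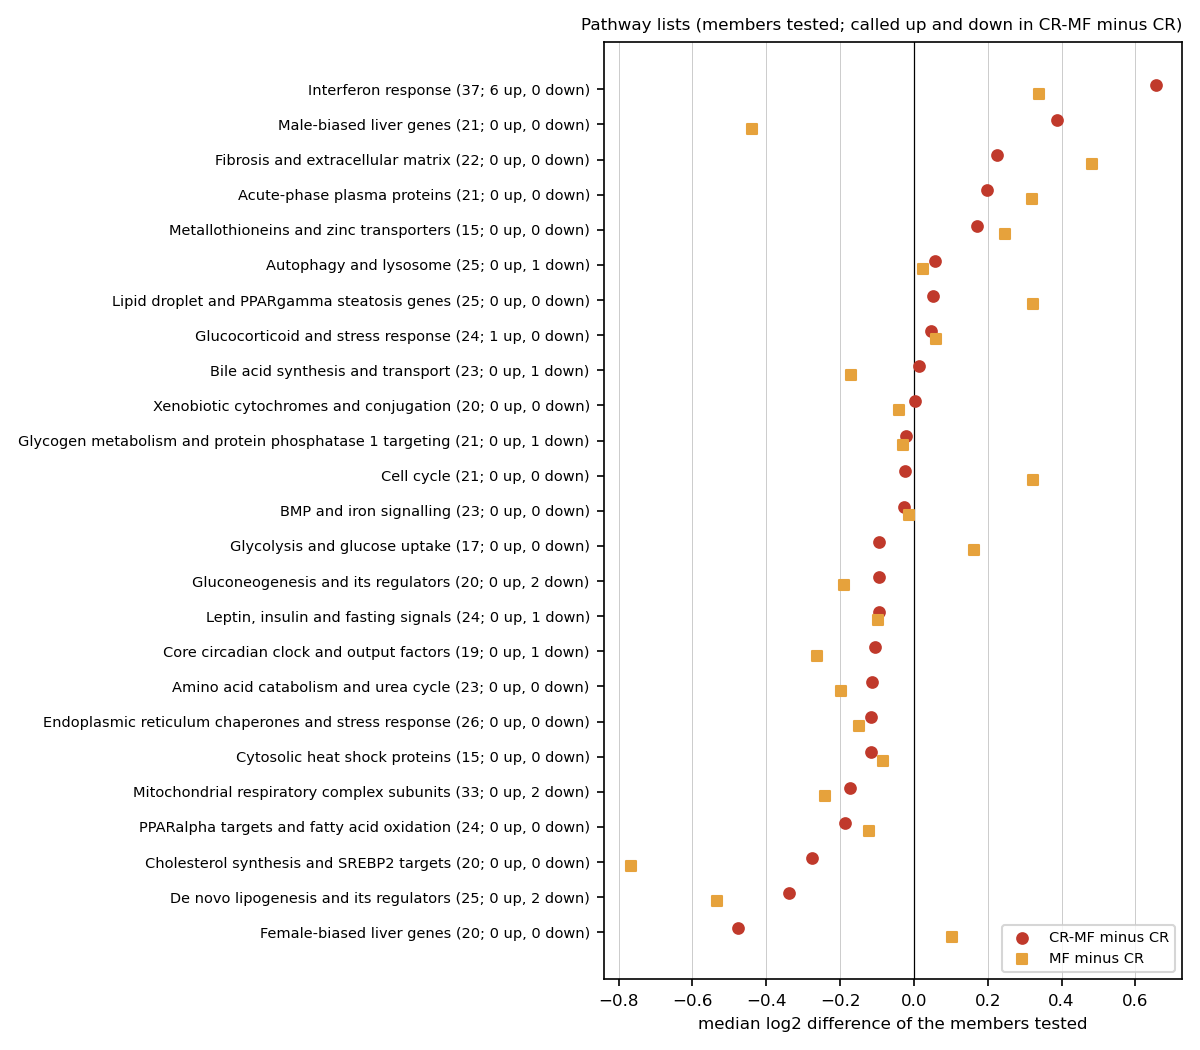
Median log2 difference of the tested members of 25 pathway lists, for CR-MF minus CR (red circles) and MF minus CR (orange squares), which share the CR arrays; labels give the members tested and the calls in CR-MF minus CR. Interferon response lies farthest right at 0.66 and female-biased genes farthest left at -0.48 for CR-MF minus CR, and for both sex-biased lists the square lies on the other side of 0.

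The changes from CR were set beside those of mice that had eaten the medium-fat diet or the control diet from the start. Between MF and CR livers 758 genes were called (5.42%), and between CR-MF and MF livers 202 (1.44%). These comparisons and C minus CR share arrays with CR-MF minus CR, so their values are given side by side without a test of likeness. For Ppp1r3g the difference from CR was -2.78 in CR-MF and -3.04 in MF livers, for Lepr -2.25 in CR-MF and -2.24 in MF, for Ppargc1a -1.05 in CR-MF and -1.04 in MF, and for Bud13 -1.52 in CR-MF and -1.50 in MF livers. In C livers, on the control diet, the difference from CR was -2.59 for Ppp1r3g, -1.07 for Lepr, -0.97 for Ppargc1a and -1.48 for Bud13. All but that of Lepr (adjusted p = 0.0676) were calls. For Ifit1 it was 1.55 in CR-MF and 0.59 in MF livers (adjusted p in MF = 0.292), and the interferon list had a median of 0.66 in CR-MF and 0.34 in MF livers. C minus CR gave 1.07 for Ifit1 (adjusted p = 0.0773) and a median of 0.53 for the list, with 33 of 37 members higher and 1 call. CR-MF minus MF itself gave a median of 0.35 for that list with 36 of 37 members higher and 1 call, and CR-MF minus C a median of 0.17 with no call. For Ifit1 CR-MF minus MF was 0.96 with an adjusted p of 0.114.

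Of the 84 genes, 7 also differed between CR-MF and MF livers, and all of them except Tmem141 between CR-MF and C livers too, where 42 of all genes were called (0.300%). In these genes the mean of CR-MF was lower or higher than the means of both lifelong diets, although single mice overlapped in some of them. Uqcr11, Tm6sf2, Rpl38 and Tmem141 were chosen after their values were seen. Uqcr11 was at 10.53 to 11.03 in CR-MF livers, against 10.92 to 11.54 in MF, 11.08 to 11.75 in C and 11.32 to 11.58 in CR livers (CR-MF minus MF -0.51, adjusted p = 0.0124). Tm6sf2, which loads lipid onto secreted lipoproteins, was at 10.05 to 10.69 in CR-MF livers, against 10.77 to 11.13 in MF, 10.67 to 11.37 in C and 10.79 to 11.30 in CR livers. It fell by 0.61 ± 0.11 against CR (adjusted p = 0.0098) and by 0.56 against MF (adjusted p = 0.00581). Rpl38, a ribosomal protein, was at 10.99 to 11.49 in CR-MF livers and fell by 0.35 against CR (adjusted p = 0.0163) and by 0.36 against MF (adjusted p = 0.00443). Tmem141 fell by 0.49 against CR (adjusted p = 0.0105) and by 0.33 against MF (adjusted p = 0.0359).

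Slc22a27, an organic anion transporter, was at 5.98 to 7.62 in CR-MF livers (median 6.71), against 7.69 to 8.96 in MF, 7.42 to 9.03 in C and 7.20, 7.25, 8.49, 8.69 and 9.51 in CR livers. The lower CR mice overlapped with CR-MF (-1.45 ± 0.34, adjusted p = 0.0446), and no MF mouse did (-1.53, adjusted p = 0.0113). Its difference from CR was -2.25 in code G150, 0.36 in G151 and -0.57 in G152. C4a, a complement component, rose to 8.62 to 9.66 in CR-MF livers, against 8.01 to 8.99 in MF, 8.04 to 8.74 in C and 7.88, 8.37, 8.42, 8.61 and 8.70 in CR livers (0.78 ± 0.18 against CR, adjusted p = 0.0354, and 0.62 against MF, adjusted p = 0.0442). The calls of Slc22a27 and C4a against CR were lost with any of 8 and 10 mice left out. Obp2a, an odorant-binding lipocalin, was at 4.52 to 5.50 in CR-MF livers, against 3.81 to 4.41 in MF, 3.80 to 4.02 in C and 3.97 to 4.42 in CR livers. The C mice lay below the filter's intensity limit of 4.32, and the MF and CR mice below or just above it. Every CR-MF array exceeded this limit, so the CR-MF group alone was enough for the gene to pass it. The rise of 0.60 ± 0.12 against CR (adjusted p = 0.0259) is thus measured close to background, in a gene tested because CR-MF was high. Slc22a27 and C4a have close relatives in the mouse genome, and how their probes share signal was not examined.

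Members of the lists of genes with a sex bias in mouse liver were called between CR-MF and MF livers but not between CR-MF and CR livers. Such genes follow the pulse pattern of growth hormone, and those outside the lists were not counted. Against CR none was called, although 20 of 21 male-biased genes were higher (median 0.39) and 18 of 20 female-biased genes lower (-0.48). Against MF, 9 male-biased genes rose (median 0.87), where 0.550% of all genes tested rose, and 5 female-biased genes fell (-0.82), where 0.893% fell. In MF minus CR the medians were -0.44 and 0.10. Hsd3b5, a male-specific steroid reductase, was at 7.33 to 10.51 in CR-MF livers (median 9.83), against 3.21 to 5.23 in MF, 3.40 to 7.73 in C and 3.92, 5.28, 8.75, 9.97 and 10.22 in CR livers. The CR mice were split over the whole range (adjusted p against CR = 0.468), whereas CR-MF was above every MF mouse (adjusted p = 0.00156), most of which were near background. Susd4, an inhibitor of complement, was at 8.64 to 10.03 in CR-MF livers, against 6.27 to 8.19 in MF and 8.07, 8.82, 9.11, 9.39 and 9.59 in CR livers (0.35 against CR, adjusted p = 0.740, and 2.07 against MF, adjusted p = 0.00162). Cyp2b9, a female-biased cytochrome, was at 6.17 to 11.52 in CR-MF livers, against 11.36 to 12.66 in MF and 11.36, 12.03, 12.22, 12.52 and 12.56 in CR livers. It missed the threshold against CR (-2.16 ± 0.56, adjusted p = 0.0695) and fell against MF (-2.26, adjusted p = 0.0207). Hsd3b5 and Susd4 were chosen after their values were seen. The CR mouse B4_7 had the lowest mean level of the male-biased genes, 8.87, and the highest of the female-biased genes, 8.25, among the 12 mice.

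**Figure D5:**
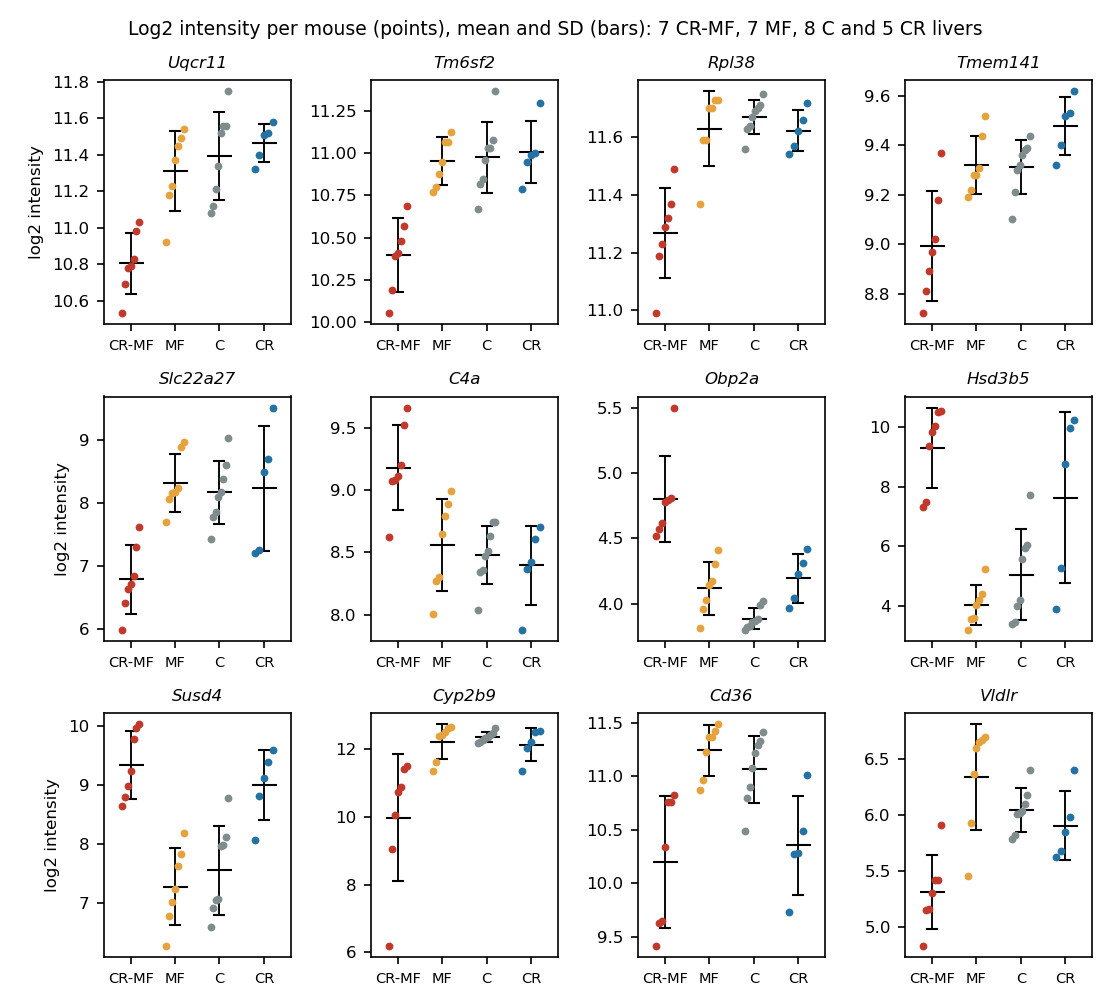
Log2 intensity of 12 genes in each mouse (points) of the CR-MF, MF, C and CR groups, from left to right, with the mean and SD of each group (bars). Uqcr11, Tm6sf2, Rpl38, Tmem141 and Slc22a27 are lowest on average in CR-MF, C4a and Obp2a highest, and for Hsd3b5 and Susd4 the CR-MF mice lie with the upper CR mice above the MF mice.

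The hepatic genes that the study follows by name gave no call between CR-MF and CR. Cd36, a fatty acid transporter that accompanies steatosis, was at 9.41 to 10.83 in CR-MF livers (median 10.34) and at 9.73, 10.27, 10.28, 10.49 and 11.01 in CR livers, and the ranges overlapped widely (-0.16 ± 0.23, adjusted p = 0.826). CR-MF livers were below the MF range of 10.87 to 11.49, so that Cd36 differed between CR-MF and MF (-1.05, adjusted p = 0.012). The VLDL receptor Vldlr, a lipid uptake receptor, was at 4.83 to 5.91 in CR-MF livers, against 5.46 to 6.70 in MF and 5.63, 5.68, 5.85, 5.98 and 6.40 in CR livers (-0.59 ± 0.19 against CR, adjusted p = 0.162, and -1.02 against MF, adjusted p = 0.0032). Fabp4, a fatty acid-binding protein, averaged 7.05 ± 0.78 in CR-MF and 6.73 ± 0.19 in CR livers (adjusted p = 0.818), and Cav1, the coat protein of caveolae, 6.49 ± 0.42 in CR-MF and 6.09 ± 0.20 in CR livers (adjusted p = 0.334). Fut8, the fucosyltransferase of core N-glycans, averaged 5.81 ± 0.24 in CR-MF and 5.87 ± 0.14 in CR livers (adjusted p = 0.886). Rpn1, Rpn2, Mogs and Uggt1, which act on N-glycans in the endoplasmic reticulum, had log2 differences of -0.04, -0.18, -0.23 and -0.24 with adjusted p of 0.895, 0.157, 0.410 and 0.224. Before adjustment over all genes, the limma p was 0.00375 for Rpn2, 0.011 for Uggt1, 0.0295 for Cav1 and 0.00436 for Vldlr, so that these 4 would pass an unadjusted threshold of 0.05 and do not pass the adjusted one used here. Ddost, of the same oligosaccharyltransferase as Rpn1 and Rpn2 and chosen after its values were seen, fell by 0.36 ± 0.08 without overlap (adjusted p = 0.0305), and any of 6 mice left out ended the call.

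A further 12 called genes were chosen after their values were seen. Ehd3, which shapes endosomal membranes, was at 9.36 to 9.96 in CR-MF livers and at 10.09 to 10.59 in CR livers (-0.66 ± 0.14, adjusted p = 0.026), and Arhgef37, a guanine nucleotide exchange factor, at 5.55 to 6.40 in CR-MF and 6.57 to 7.03 in CR livers (-0.69 ± 0.15, adjusted p = 0.0367). Slc19a2, a thiamine transporter, fell by 0.59 (adjusted p = 0.0498), Mst1, macrophage-stimulating protein, by 0.34 (adjusted p = 0.0484), and Dhps, which makes the hypusine of eIF5A, by 0.37 (adjusted p = 0.0304). The translation initiation factor subunit Eif3i fell by 0.27 (adjusted p = 0.0305) and the adaptor Crkl by 0.26 (adjusted p = 0.0467), on the log2 scale as before. Mfsd1, a lysosomal transporter, rose by 0.37 ± 0.07 without overlap (adjusted p = 0.0163) and lost its call with only 1 mouse left out. Ermp1, a metallopeptidase of the endoplasmic reticulum, rose by 0.47 (adjusted p = 0.0281), Sh3pxd2a, a scaffold of podosomes, by 0.39 (adjusted p = 0.0259) and Trmt6, a subunit of a tRNA methyltransferase, by 0.30 (adjusted p = 0.0342). Col25a1, a membrane collagen, was at 5.08 to 5.47 in CR-MF and 4.77 to 4.96 in CR livers (adjusted p = 0.0493), and it also differed between CR-MF and C livers (adjusted p = 0.00637). The calls of the genes other than Mfsd1 were lost with any of 5 to 10 mice left out. The other 19 called genes comprised 7 that rose and 12 that fell, with log2 differences between -0.53 and 0.59.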

How the data were processed

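Liver RNA of 27 mice was labelled and hybridised to Affymetrix Mouse Gene 1.1 ST arrays, 1 per mouse. The authors deposited log2 intensities for each transcript cluster, made with Robust Multiarray Average, a method that subtracts background, equalizes the arrays and combines the probes of a cluster. Its version is not given in the sources used here. Because the arrays were equalized, a shift common to most genes would not be seen. Of 35556 clusters, 21218 had 1 gene symbol, 1881 several and 12457 none listed. Clusters with 1 symbol stood for 18820 genes (the brightest cluster per gene), of which 18790 matched RefSeq by gene ID and none changed its symbol. Tested were 13993 genes that exceeded an intensity of 20 (log2 4.32) on 5 or more arrays and whose interquartile range was over 0.1; the other 4827 were left out.

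The 4 group means were fitted over all arrays with limma 3.58.1 in R 4.3.3 (lmFit, and eBayes with trend; residual degrees of freedom, 23). Adjusted p-values are two-sided Benjamini-Hochberg values over the tested genes, and a call is an adjusted p under 0.05. Standard errors come from the fit and SDs from the mice. Each array was a separate mouse, and the number of arrays limits the precision. The groups compared, the gene lists and the rule for named genes were chosen with earlier results of these data known. Named by rule were the 15 largest rises and 15 largest falls among calls, called list members, the 2 members with the smallest p per list and the genes the study follows by name; a list's level in a mouse is the mean of its members. Figures were drawn with matplotlib 3.10.9. Normalization, filters, moderation, weights, array code, animal number and single mice were varied as alternatives, and the fit was tested on simulated data. Genes on clusters with several symbols or none, and the plasma, glycan and methylation measurements, were not analysed here.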

Additional observations from a re-analysis of the deposited data

Results flagged for a closer look

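In a search for single mice far from the rest of their group, 290 groups of values were examined and 18 had such a mouse; chance gives this in about 1 in 20 groups. The CR-MF mouse BC4_15 accounted for 7 of them. It was low for Bud13 (6.23, group median 6.59), Dnajb1 (6.73, median 7.11) and Mtfp1 (6.55, median 7.64). It was high for Irs2 (8.08, median 7.45), Tat (13.24, median 12.81), Lpgat1 (11.35, median 10.85) and the mean level of the glucocorticoid and stress response genes (9.57, median 8.78). The CR mouse B4_5 was low for the plasma proteins C8a (10.55, median 11.23) and Saa4 (11.22, median 12.15), and high for the mean level of the cell cycle genes (7.06, median 6.13) and of the B and plasma cell markers (5.73, median 5.29). BC4_11 was high for Fut8 (6.29, median 5.79), Smarce1 (9.61, median 9.43) and the mean level of the T and natural killer cell markers (6.92, median 5.36). BC4_1 was high for Obp2a (5.50, median 4.78) and low for Bckdhb (9.95, median 10.27), BC4_3 was high for Noct (8.65, median 7.83), and BC4_5 was low for Aurka (4.60, median 5.19).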

How the results depend on the processing

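Several settings left the number of calls between CR-MF and CR within 1.5 times of 84. Among them were quantile normalization, median centring, the stricter filter (intensity above 100), the mean of a gene's clusters and eBayes without trend. Robust eBayes, the array code as a block and an intensity-based moderated statistic, computed on the limma fit in place of eBayes, did so too. No called gene examined singly changed sign in any of these refits. Within code G151, which holds 1 mouse of each group, 6 of the 84 called genes had the opposite sign (Slc22a27 at 0.36, Noct at 0.06, C4a at -0.08, Eif4e3 at -0.09, Gbp7 at -0.0064, and Ttc17), and none did in G150 or G152. Array weights gave 209 calls, the CR-MF and CR arrays alone 9, code G150 alone 8, the animal number as a replicate block 6, and leaving out BC4_11 and BC4_15, a setting chosen after seeing the data, 15. Single mice left out gave 21 to 137 calls. As percentages of the 13993 tested genes (0.236% higher and 0.364% lower in CR-MF as reported), 0.136% were higher without a filter, 0.657% higher and 0.836% lower with array weights, 0.0143% and 0.05% on the CR-MF and CR arrays alone, 0.0143% and 0.0429% with code G150 alone, 0.00715% and 0.0357% with the replicate block, and 0.00715% and 0.1% without both mice. Single mice left out gave 0.0286% to 0.436% higher and 0.121% to 0.615% lower. Between MF and CR (5.42% called), code G150 alone gave 0.479%, the replicate block 2.1% and single mice left out 1.84% to 6.57%. Between CR-MF and MF (1.44%), array weights gave 3.68%, code G150 alone 0.815%, the replicate block 0.929%, the setting without both mice 4.19% and single mice left out 0.65% to 3.02%.

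The animal numbers did not pair the mice: for 4 shared numbers the correlations of deviations from the group mean were 0.203, 0.0942, 0.0216 and 0.00389, and only number 1 matched its own partner best. In refits, signs changed only for genes without a call. The log2 difference of Fabp4 was -0.11 without BC4_11 and BC4_15. With code G150 alone it was -0.079 for Cyp17a1, -0.032 for Cidea and -0.14 for Pparg. With single mice left out it ran between -0.32 and 0.0035 for Cd36, between -0.10 and 0.042 for Rpn1, between -0.11 and 0.31 for Cyp17a1, between -0.028 and 0.20 for Gstp1, and between -0.34 and 0.60 for Elovl3. The causes of these shifts were not tested.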
